A study of Aedes aegypti with 7 samples.

Results

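E75 and E74 are early genes of the ecdysone response, and their RNA was followed here in AGO1 CLIP-seq libraries of adult females of the mosquito Aedes aegypti (strain UGAL/Rockefeller), made from the fat body, the insect's counterpart of liver and fat tissue. The members are all peaks that the deposited peak table assigns to the gene ID AAEL007397 (E75) or AAEL000741 (E74). These are 44 peaks of E75 and 31 of E74, 75 in all of the 100836 peaks of the table. The females were sampled 24 h post blood meal (PBM) or, before a blood meal, 72 h post eclosion (PE), with 3 libraries at each time. Per the labels, females 3 or 4 days after eclosion counted as 72 h PE, and blood was then offered to mosquitoes of the same cage. No unfed females of the later time are among the samples, so the meal and the greater age cannot be told apart. In CLIP-seq, tissue is irradiated with ultraviolet light, which links proteins to the RNA they touch, and the RNA pulled down with an antibody is sequenced. AGO1 is the Argonaute protein that carries microRNAs to their target RNAs.

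After a blood meal the mosquito makes the steroid hormone 20-hydroxyecdysone, which binds the receptor pair of the ecdysone receptor (EcR) and Ultraspiracle (USP) and turns on early genes. The early genes encode transcription factors, which in turn act on later genes, among them those of the yolk proteins that the fat body makes. E75 encodes a nuclear receptor, and in Drosophila it binds heme and interferes with the receptor HR3. E74 encodes a transcription factor with an ETS DNA-binding domain.

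The libraries held 90568 to 132758 counts at 24 h PBM and 69424 to 107245 counts at 72 h PE. The fat body product vitellogenin-A1, the major yolk protein precursor, rose at 24 h PBM (log2 fold change 5.36, SE 0.43, edgeR adjusted p = 2.81e-09). The 19 fat body markers together held 32570 to 60380 CPM (counts scaled to a common library total) at 24 h PBM and 1154 to 2264 CPM at 72 h PE. Vitellogenin-A1 alone made up 96.1% of their counts, so the sum mostly follows that gene. In each library 8 to 12 of the 19 were at 0. Other members went either way, with 48, 34 and 28 counts against 13, 2 and 2 for prophenoloxidase AAEL013492, and 1, 1 and 3 against 8, 7 and 5 for transferrin AAEL011949. The 3 ovary markers summed to 147 to 4749 CPM at 24 h PBM and 0 to 39.7 CPM at 72 h PE, where all 3 were at 0 in replicate 1 and 2 of the 3 in each other library. The highest ovary sum was that of 24 h PBM replicate 3, and vitelline membrane protein 15a-1 held 93.3% of the ovary counts. The 21 muscle markers summed to 5723 to 13180 CPM at 24 h PBM and 3668 to 6207 CPM at 72 h PE, and the 12 midgut markers to 131 to 463 CPM at 24 h PBM and 165 to 318 CPM at 72 h PE. The part that RNA of other tissues had in the results was not tested.

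Both genes held several times more AGO1 CLIP counts at 24 h PBM than at 72 h PE. E75 rose 4.83-fold and E74 8.52-fold, so that both members were called higher, as were 13.2% of all genes tested, with 24.7% called in either direction. The coding counts of E75 rose, and its intronic counts overlapped between the times. In E74 neither class was called by itself. Its coding and intronic counts were higher in every 24 h PBM library, on 0 to 3 counts per library at 72 h PE. How many of all sums by gene and class separated so was not counted, while 21.4% of all genes tested did. Neither gene had a peak annotated as untranslated region (UTR).

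E75 held 39, 18 and 28 counts in replicates 1, 2 and 3 at 24 h PBM, and 7, 9 and 6 counts at 72 h PE. Every 24 h PBM library lay above every 72 h PE library. In TMM-scaled CPM, E75 averaged 588 ± 126 at 24 h PBM and 121 ± 6.89 at 72 h PE (SD, n = 3 each). The log2 fold change was 2.27 (SE 0.50, adjusted p = 0.00139, edgeR's quasi-likelihood test with Benjamini-Hochberg adjustment over all genes tested). The SD at 72 h PE, on 6 to 9 counts, is smaller than the counting error of such numbers.

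E74 held 15, 11 and 17 counts in replicates 1, 2 and 3 at 24 h PBM, and 2, 0 and 4 counts at 72 h PE. All 24 h PBM libraries again lay above all 72 h PE libraries, and 72 h PE replicate 2 had no count of the gene. A count of 0 there allows up to 3 counts, or 38.2 CPM. E74 averaged 310 ± 90.7 CPM at 24 h PBM and 38.7 ± 39.8 CPM at 72 h PE (SD, n = 3 each), a log2 fold change of 3.09 (SE 0.69, edgeR adjusted p = 0.00154). This call was lost without 24 h PBM replicate 3 (log2 fold change 2.88, edgeR adjusted p = 0.0599) and without 72 h PE replicate 2 (2.25, edgeR adjusted p = 0.0506). Without 72 h PE replicate 3 the log2 fold change was 4.09. Over the alternatives that summed annotated peaks alone, the edgeR or DESeq2 adjusted p of E74 ran from 0.000264 to 0.0599. The lowest was that with the replicate block. In 24 h PBM replicates 1, 2 and 3, E74 stood at 245, 272 and 414 CPM, E75 at 638, 445 and 682 CPM, and the ovary markers at 147, 766 and 4749 CPM.

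Across the whole table, 687 genes and microRNA precursors had enough counts to be tested. Of these, 91 (13.2%) were called higher and 79 (11.5%) lower at 24 h PBM, and the median log2 fold change was 0.07. The libraries did not overlap, with 24 h PBM above, for 147 of the 687 (21.4%). Scaling by library totals alone moved the median of all genes to -0.75 and the calls to 55 higher and 239 lower. E75 and E74 were still called with it (log2 fold changes of 1.46 and 2.30, edgeR adjusted p = 0.0276 and 0.0119). Scaling from all peaks of the table gave log2 fold changes of 1.62 for E75 and 2.47 for E74, with a median of -0.60 over all genes. Both genes passed the filter on low counts through their 24 h PBM libraries. In a fit of all 8662 genes and precursors with no filter, in which 1.1% were called higher and 0.427% lower, both were also called higher (2.21 and 3.0, edgeR adjusted p = 0.0102 and 0.0151). In whole tissue, fewer cells with a transcript and less of it per cell cannot be told apart, and CLIP counts alone do not separate the amount of a transcript from the fraction of it that AGO1 touches.

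**Figure D1:**
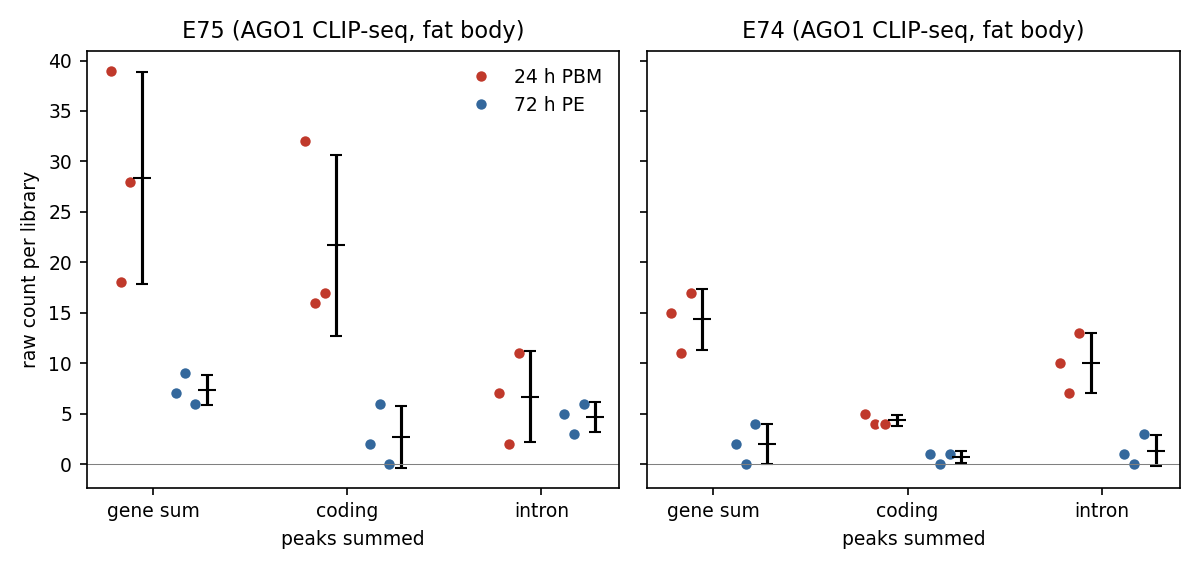
Raw AGO1 CLIP counts per library (y axis) of E75 (left) and E74 (right) at 24 h PBM and 72 h PE, summed over all peaks of the gene, over coding peaks and over intronic peaks; points are libraries, bars are mean ± SD (n = 3). The gene sums of 18 to 39 (E75) and 11 to 17 (E74) at 24 h PBM lie above those of 6 to 9 and 0 to 4 at 72 h PE, while the intronic counts of E75 overlap.

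By annotation class, E75 had 24 coding peaks and 20 intronic peaks. Its coding peaks held 32, 16 and 17 counts at 24 h PBM, and 2, 6 and 0 counts at 72 h PE. All 24 h PBM libraries were higher, and the coding sum rose by a log2 fold change of 3.43 (SE 0.68, edgeR adjusted p = 0.000604) in a fit over 655 sums by gene and class, of which 83 (12.7%) were called higher and 67 (10.2%) lower, 22.9% in all. Without 72 h PE replicate 2 the coding log2 fold change was 4.34, and without 72 h PE replicate 3 it was 2.81, both still called. Its intronic peaks held 7, 2 and 11 counts at 24 h PBM, and 5, 3 and 6 counts at 72 h PE. The 2 times overlapped there. The intronic sum had too few counts for that fit, and in the fit with no filter its log2 fold change was 0.79 (SE 0.87, edgeR adjusted p = 0.570).

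The coding share of E75 counts was 82.1% (32 of 39, exact Clopper-Pearson 95% interval 66.5 to 92.5), 88.9% (16 of 18, 65.3 to 98.6) and 60.7% (17 of 28, 40.6 to 78.5) at 24 h PBM. It was 28.6% (2 of 7, 3.67 to 71.0), 66.7% (6 of 9, 29.9 to 92.5) and 0% (0 of 6, 0 to 45.9) at 72 h PE. The intervals cover counting error only. The means were 77.2% ± 14.7 and 31.7% ± 33.4 (SD, n = 3 each). The difference was 45.5 percentage points (p = 0.2, exact two-sided permutation test). The smallest p that 3 against 3 libraries allow is 0.1, so this test could not reach 0.05 and decides nothing here. The shares overlapped, as 24 h PBM replicate 3 lay below 72 h PE replicate 2. The difference was 29.6 points without 72 h PE replicate 3 and 62.9 points without 72 h PE replicate 2. Over all transcript peaks of the table the coding share was 57.3% to 65.5% at 24 h PBM and 45.6% to 51.2% at 72 h PE. These shares weigh each gene by its counts. The most counted gene, AAEL006138, held 9389, 6100 and 6903 counts at 24 h PBM, against 149, 295 and 363 at 72 h PE. Whether the shares differ without the most counted genes was not tested.

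E74 had 24 intronic peaks and 7 coding ones. Its intronic peaks held 10, 7 and 13 counts at 24 h PBM, and 1, 0 and 3 counts at 72 h PE. Its coding peaks held 5, 4 and 4 counts at 24 h PBM, and 1, 0 and 1 counts at 72 h PE. The libraries of the 2 times did not overlap in either class, but neither sum reached the filter. How many of all sums by gene and class separated in this way, as the coding sum of E75 also did, was not counted. With no filter the log2 fold changes were 3.07 for introns (SE 0.97, edgeR adjusted p = 0.155) and 2.76 for coding sequence (SE 1.44, edgeR adjusted p = 0.570), where 0.609% of all sums by gene and class were called higher and 0.0972% lower. The intronic share at 24 h PBM was 66.7% (10 of 15, exact 95% interval 38.4 to 88.2), 63.6% (7 of 11, 30.8 to 89.1) and 76.5% (13 of 17, 50.1 to 93.2). At 72 h PE it was 50% (1 of 2) in replicate 1 and 75% (3 of 4) in replicate 3. Of all transcript counts in the 24 h PBM libraries, 9.68% to 12.7% were intronic, a share that weighs each gene by its counts. No share was tested for E74, because 72 h PE replicate 2 held none of its counts.

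No count of either gene fell in a peak annotated as UTR. For E75, 0 of 107 counts allows a share of up to 2.80%, and for E74, 0 of 49 counts allows up to 6.12%. These limits pool the 6 libraries and cover counting error only. In the table as a whole, 3' UTR peaks held 8.04% to 9.66% of the transcript counts at 24 h PBM and 11.1% to 12.1% at 72 h PE. The 5' UTR peaks held 2.97% to 3.79% at 24 h PBM and 3.52% to 4.14% at 72 h PE, shares that lie below the limit of E74. Whether the annotation gives these 2 genes any UTR was not tested.

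The E75 peaks spread over 188.3 kb of the plus strand of supercont1.253:539928-728271 (assembly AaegL3, positions as deposited). Its coding peaks stood in 3 groups. The first group, 12 peaks within 1004 bases at supercont1.253:697251-698255, held 11, 10 and 9 counts at 24 h PBM, and 0, 1 and 0 counts at 72 h PE. It thus had similar counts in all 3 libraries after the meal and a single count before it. The second was 1 peak at supercont1.253:716582-716631, with 0, 5 and 3 counts at 24 h PBM and 0, 2 and 0 counts at 72 h PE. The third, 11 peaks at supercont1.253:726316-728271, held 21, 1 and 5 counts at 24 h PBM, and 2, 3 and 0 counts at 72 h PE. In it the libraries overlapped, and 12 of the 21 counts of 24 h PBM replicate 1 came from 1 peak, supercont1.253:727769-727816, that had no count in any other library. These groups were formed after the peaks were seen and carry no test.

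The intronic peaks of E75 ran over 175.5 kb, some of them close together. Within 887 bases at supercont1.253:712724-713611 lay 5 intronic peaks with, in sum, 3, 2 and 4 counts at 72 h PE and none in any 24 h PBM library. Each of these 5 peaks was seen in 1 library only, with 1 to 3 counts. They made up 9 of the 14 intronic counts of E75 at 72 h PE. Of the other 15 intronic peaks, the highest, at supercont1.253:539928-539943 and at supercont1.253:676921-676967, had 4 counts each. This stretch too was picked out after its values were seen.

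The E74 peaks spread over 64.1 kb of the plus strand of supercont1.15:56478-120606. Its coding peaks lay at both ends of that span, with 3 peaks at supercont1.15:56478-57136, 1 at supercont1.15:112438-112445 and 3 at supercont1.15:119884-120606. The first 3 held 5, 1 and 2 counts at 24 h PBM, and 1, 0 and 1 counts at 72 h PE. The last 3 held 0, 3 and 1 counts at 24 h PBM and none at 72 h PE. The 24 intronic peaks were spread between them, each with 5 counts or fewer and each seen in 1 library only. The intronic peak at supercont1.15:57483-57519 had 5 counts, all in 24 h PBM replicate 1, and that at supercont1.15:101410-101447 had 3 counts, all in 72 h PE replicate 3.

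Single peaks of both genes were thin. Of the 44 E75 peaks, 36 had counts in 1 library only, 6 in 2 and 2 in 3 libraries, and of the 31 E74 peaks the numbers were 28, 2 and 1. Over all transcript peaks of the table, 72.9% were seen in 1 library only. Only 1 peak of the 2 genes, the coding peak of E75 at supercont1.253:697545-697596 with 2, 1 and 3 counts, was seen in all 3 libraries of 24 h PBM, and it had no count at 72 h PE. No peak was seen in all 3 libraries of 72 h PE. Peak length ran from 15 to 51 bases in E75 (median 25) and from 7 to 46 bases in E74 (median 29), against a median of 24 for all transcript peaks. Raw counts at 24 h PBM exceeded those at 72 h PE in 61 of the 75 peaks (81.3%), against 41.8% of all transcript peaks of the table. Counts at 24 h PBM alone were seen in 30 E75 peaks (68.2%) and 28 E74 peaks (90.3%), against 35.2% of all transcript peaks. Counts at 72 h PE alone were seen in 11 E75 peaks (25%) and 2 E74 peaks (6.45%), against 44.0% of all. Peaks of 1 gene share that gene's transcript, and these shares carry no test. None of the 75 peaks was among the 948 peaks with enough counts to be tested. With no filter none was called by edgeR, against 0.298% of all peaks higher and 0.0129% lower, the lowest adjusted p being 0.369, and 1 had an unadjusted p under 0.05, the E75 peak that rests on 24 h PBM replicate 1.

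Peaks without any annotation lay on the same strand just outside the span of both genes. Within 3 kb after the last annotated peak of E74, 6 such peaks at supercont1.15:121847-123323 held 13, 10 and 12 counts at 24 h PBM and none at 72 h PE. The peak at supercont1.15:121847-121869 alone held 11, 4 and 7 of them, more than any annotated E74 peak, whose highest total was 5. Before the first annotated peak of E74, 6 peaks at supercont1.15:54772-56340 held 8, 5 and 3 counts at 24 h PBM and none at 72 h PE. After the last annotated peak of E75, 10 peaks at supercont1.253:728668-730554 held 17, 3 and 8 counts at 24 h PBM, and 0, 4 and 0 counts at 72 h PE. For E75 the raw counts overlapped there, at 3 in 24 h PBM replicate 2 and 4 in 72 h PE replicate 2. In TMM-scaled CPM these stood at 74.2 and 50.9, so the order of these small counts depended on the scaling. Whether these peaks belong to the transcripts of E74 and E75 was not tested, and the window of 3 kb was chosen after they were seen. With them added to the sums of E74 and E75, and to no other gene, the log2 fold changes were 4.20 for E74 and 2.45 for E75. These 2 values describe peaks already seen and carry no test. On the opposite strand within the spans lay 1 unannotated peak in each gene, with 2 counts in 24 h PBM replicate 1 for E74 and 4 counts in 72 h PE replicate 1 for E75.

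**Figure D2:**
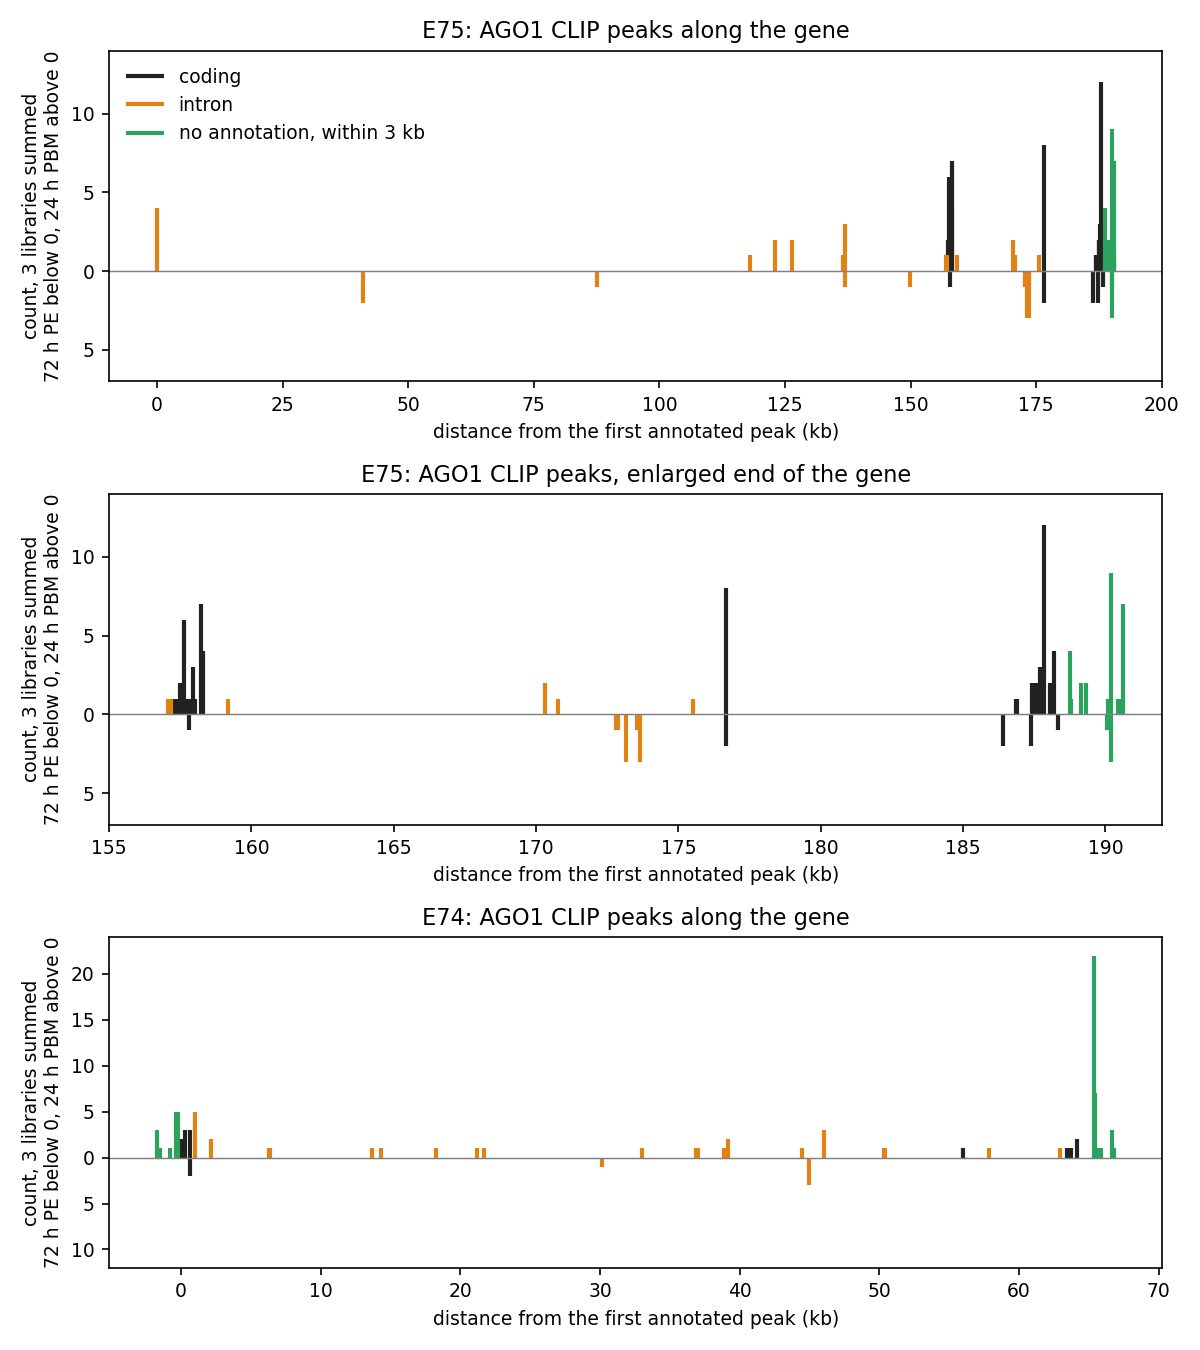
AGO1 CLIP counts per peak, 3 libraries summed, along E75 (top, with its end enlarged in the middle) and E74 (bottom); the x axis is the distance in kb from the first annotated peak, 24 h PBM counts point up and 72 h PE counts point down, and colour marks the annotation class. Coding peaks of E75 stand in groups near 157, 177 and 186 kb, and unannotated peaks follow the last coding peak of both genes.

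Other genes of the ecdysone and juvenile hormone pathways were taken from a list of names and fixed gene IDs. Of these, 32 besides E75 and E74 had a count in the table. Among the 32, 3 had enough counts to be tested, and none was called by edgeR or DESeq2 or had an unadjusted edgeR p under 0.05. Of all 687 genes tested, 24.7% were called by edgeR in either direction and 258 (37.6%) had an unadjusted p under 0.05. The ecdysone receptor, the hormone's own receptor, held 25, 11 and 15 counts at 24 h PBM, and 7, 17 and 10 counts at 72 h PE (log2 fold change 0.94, SE 0.50, edgeR adjusted p = 0.173). Its raw counts overlapped between the times. In TMM-scaled CPM its libraries did not, at 349 ± 69.9 CPM and 181 ± 46.7 CPM (SD, n = 3 each). With scaling by library totals alone its log2 fold change was 0.11 (edgeR adjusted p = 0.886). Sevenup, an orphan nuclear receptor, held 17, 21 and 9 counts at 24 h PBM, and 11, 17 and 4 counts at 72 h PE (0.98, SE 0.54, edgeR adjusted p = 0.185). The gene named juvenile hormone resistance protein held 35, 12 and 19 counts at 24 h PBM, and 32, 28 and 36 counts at 72 h PE (-0.28, SE 0.44, edgeR adjusted p = 0.655).

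HR3 and hormone receptor-like in 4 (HR4), nuclear receptors that are also induced by ecdysone, had counts almost only at 24 h PBM. HR3 held 20, 5 and 8 counts at 24 h PBM, and 2, 1 and 0 counts at 72 h PE. In the fit with no filter it was the 1 gene of the 32 to be called higher (3.52, SE 0.99, edgeR adjusted p = 0.0268), and none was called lower. Of all genes and precursors in that fit, 95 of 8662 (1.1%) were called higher and 37 (0.427%) lower. HR4 held 6, 9 and 7 counts at 24 h PBM, and 0, 0 and 1 counts at 72 h PE (4.30, SE 1.29, edgeR adjusted p = 0.0547). CYP18A1, an enzyme that inactivates ecdysone in Drosophila, held 7, 0 and 5 counts, against 0, 0 and 2. Ecdysone inducible protein L2 held 8, 9 and 13 counts at 24 h PBM, and 3, 1 and 13 counts at 72 h PE.

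Other members had fewer counts at 24 h PBM, none of them called. The gene named Betha Ftz transcription factor, a nuclear receptor that in this mosquito makes the fat body able to respond to ecdysone, held 5, 0 and 0 counts, against 12, 10 and 6 at 72 h PE (-2.20, SE 0.99, edgeR adjusted p = 0.509 with no filter). A zinc finger protein, AAEL002390, in the list by its ID as the gene Kr-h1, held 1, 1 and 1 counts, against 6, 20 and 5 (-2.85, SE 1.06, edgeR adjusted p = 0.246 with no filter). Ultraspiracle, the partner of the ecdysone receptor, held 3, 1 and 2 counts, against 10, 4 and 4 (-1.30, SE 1.08, edgeR adjusted p = 0.622 with no filter). Of the 13 list genes with at least 10 counts in all, scaled counts did not overlap between the times for 4 that were higher and 3 that were lower at 24 h PBM. Among all 3044 genes and precursors with as many counts, the shares were 12.8% higher and 12.1% lower. The 19 remaining list genes had 9 counts or fewer, and 12 of the 32 were juvenile hormone-inducible proteins with at most 14 counts.

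**Figure D3:**
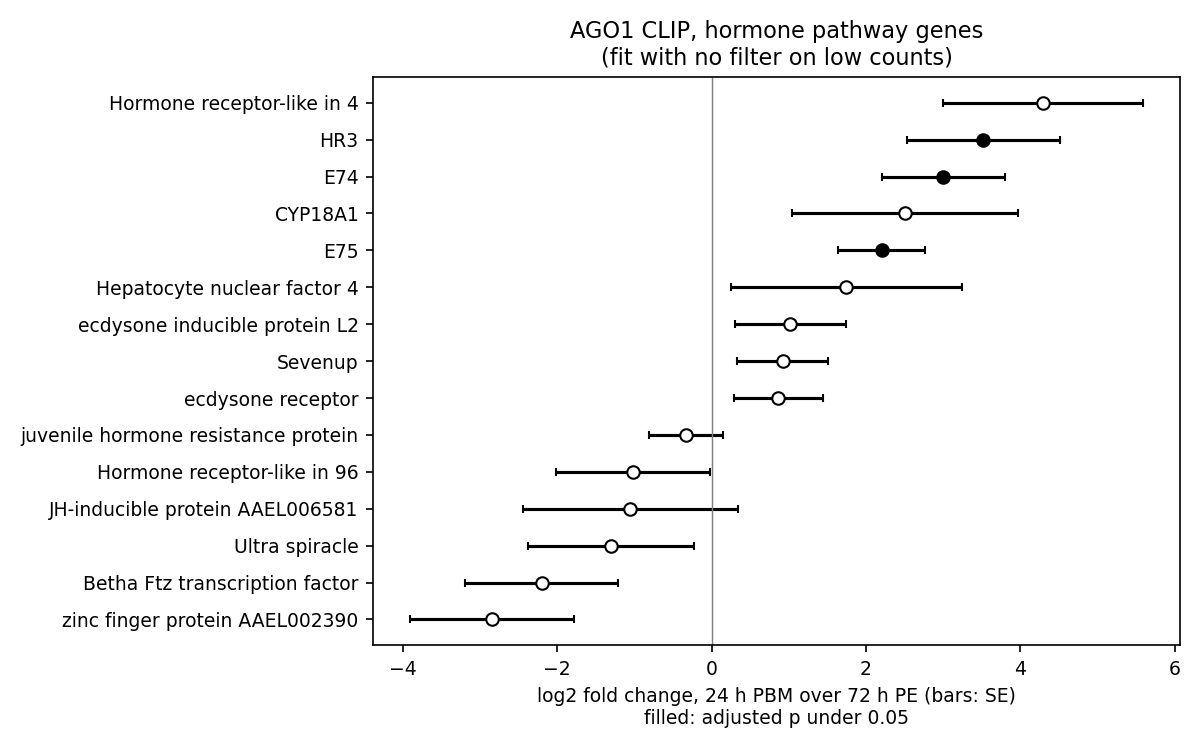
Log2 fold change of AGO1 CLIP counts, 24 h PBM over 72 h PE (x axis, bars are SE), of E75, E74 and the 13 pathway genes with at least 10 counts (y axis), from the edgeR fit with no filter; filled points have an adjusted p under 0.05. E75 (2.21), E74 (3.0) and HR3 (3.52) are filled, and AAEL002390 (-2.85) is the lowest.

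The genes with the pattern most like E75, by Pearson correlation of log2 CPM over the 6 libraries, were a retinoid-inducible serine carboxypeptidase (AAEL006542, r = 0.991), glutamate semialdehyde dehydrogenase (AAEL006834, r = 0.990) and AAEL009955 (r = 0.988), which has no name in the table. The choice by correlation over these libraries favours genes that differ between the times as E75 does, so their differences are a description. All 3 were higher at 24 h PBM (log2 fold changes of 5.21, 2.30 and 2.03, edgeR adjusted p of 9.52e-06, 9.52e-06 and 1.55e-05). Those most like E74 were AAEL004873, AAEL013987 and AAEL007173 (r = 0.984, 0.984 and 0.983), none of them named in the table, with log2 fold changes of 1.26, 2.06 and 1.81 and edgeR adjusted p of 0.0785, 0.00648 and 0.0201. The libraries of a time share that time and differ in depth, and these r describe the 6 libraries only.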

How the data were processed

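AGO1 CLIP-seq was measured in 6 fat body libraries, 3 at 24 h PBM and 3 at 72 h PE, called independent biological replicates in the series' design text. Per the labels' protocols, the ultraviolet dose was 900 mJ/cm2. The authors deposited raw counts per peak and library over 1 common set of peaks on AaegL3 with the AaegL3.3 annotation, per the file headers. The peaks are Findpeaks output, per the labels, whose settings no source used here gives. The submitters' processing notes list R 3.1.2, bedtools 2.17.0, TopHat2 2.0.14 and Bowtie2 2.2.3 without roles. No AaegL3 genome was used here, so no sequence is shown.

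Counts were summed by gene, or by gene and annotation class, over transcript and microRNA precursor peaks. Peaks without annotation held 27.4% of all counts and stayed out of these sums. Tests of sums and of single peaks used edgeR 4.0.16 under R 4.3.3 (TMM scaling, filterByExpr, robust quasi-likelihood F test, two-sided, Benjamini-Hochberg adjustment at 0.05 over the whole table), and DESeq2 1.42.0 was an alternative. SE is the log2 fold change divided by the square root of F. The code was tested on simulated data. CPM use TMM-scaled totals of the tested genes. Alternatives were other scalings, other filters, a replicate block, other peak sets and leaving out each library. P-values measure the spread between these libraries. Replicates of 1 time differed by more than sampling noise (chi-square per degree of freedom 2.46 to 6.39).

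The members and lists were chosen with earlier results of these data known. Named were E75, E74, their peaks with at least 10 counts, the called or 5 most counted pathway genes and the 3 genes most correlated with each member; other pathway genes, and other peaks, named were chosen after their values were seen. Small RNA tables were not used here.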

Additional observations from a re-analysis of the deposited data

How the results depend on the processing

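E75 stayed called higher in every alternative that tested it, with log2 fold changes of 1.46 to 3.53 (edgeR or DESeq2 adjusted p of 4.03e-05 to 0.0276), and of 2.12 to 2.46 without single libraries. Its coding sum stayed called as well (2.49 to 4.34, and 2.81 to 4.34 without single libraries). With annotated peaks alone in its sum, E74 ran from 2.25 to 4.09, which was also its range without single libraries (adjusted p up to 0.0599). The causes of the lost calls were not tested. The value of 4.20, with unannotated peaks within 3 kb added, was left out of this range because those peaks were chosen after they were seen. Without its most counted peak, or with exonic or intronic peaks alone, E74 fell below the filter and gave no value. E75 gave none with intronic peaks alone.

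Of all genes, library totals called 55 higher and 239 lower, scaling from all peaks 59 and 209, intronic peaks alone, with 92 genes tested, 10 and 1, and no filter 37 lower. Without single libraries 78 to 123 were higher and 40 to 76 lower. By class, library totals called 245 lower, no filter 15, and leaving out single libraries 22 to 76. Among peaks, no filter called 13 lower and leaving out single libraries 81 to 143.

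Same-numbered libraries of both times deviated together with correlations of 0.21, 0.07 and 0.157, and each library correlated best with its own number. The labels give no pairing, so the main fits did not pair the libraries. Whether the numbers mark pairs was not tested. With the replicate block, 111 genes were higher and 94 lower, and E75 (log2 fold change 2.24) and E74 (3.15) stayed called. With 0 to 39 counts per gene and library, depth limits every single peak.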
